A study of Mus musculus with 6 samples.

Results

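The voltage-gated sodium and calcium channel genes are 40 protein-coding genes of the mouse, out of 22046 protein-coding entries and 54532 entries in all in the deposited FPKM table (fragments per kilobase of gene length, scaled to the depth of the library). They were taken by gene symbol, whatever their level. They comprise 10 sodium channel alpha genes (Scn followed by a number and a), 4 sodium channel beta genes, 10 calcium channel alpha1 genes (Cacna1), 4 alpha2delta genes (Cacna2d), 4 calcium channel beta genes (Cacnb) and 8 gamma genes (Cacng). Each library held RNA of V1, the primary visual area, of a C57BL female at 9 weeks of age, with 2 libraries a group and 6 in all. Each mouse had received an adeno-associated virus (AAV), a gene carrier, in the same cortex. The shCSB/shNDN group had hairpins for both targets, CSB and necdin, the shCSB group the hairpin for CSB, and the shControl group a control hairpin, so all mice carried a virus and a hairpin. Ercc6 codes for CSB, which acts in the repair of transcribed DNA and is lost in Cockayne syndrome, and the imprinted gene Ndn codes for necdin. The labels give neither the promoter of the hairpins nor the share of cells infected. The series states 2 mice per genotype, which are taken as the 2 libraries of each group.

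Sodium channel alpha subunits form the pore that carries the upstroke of the action potential, and beta subunits are small membrane proteins with an immunoglobulin fold that tune gating and placement. Calcium channel alpha1 subunits form the pore through which depolarization lets calcium in, to release transmitter at terminals, to signal to the nucleus or to shape bursts. The alpha2delta subunits are extracellular and the beta subunits are cytosolic, and both raise the number of channels at the surface. Of the gamma genes, only Cacng1 and the closely related Cacng6 belong to muscle-type channel subunits, and most of the others code for TARPs, auxiliary subunits that traffic and gate AMPA-type glutamate receptors.

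The libraries held 15731788 to 17365285 reads as recovered from the FPKM values. Ercc6, the target of the CSB hairpin, had 1.605 and 1.81 FPKM in the libraries labelled shCSB/shNDN, 1.29 and 1.61 in those labelled shCSB, and 1.46 and 1.23 in shControl. Its level was not lower in either group with the CSB hairpin, so the groups are called by their labels, and every direction given here depends on those labels alone. Ndn had 16.8 and 40.95 FPKM in the libraries labelled shCSB/shNDN, 47.9 and 38.1 in those labelled shCSB, and 56.1 and 49.8 in shControl, and only replicate 1 of shCSB/shNDN lay well below the rest. The mitochondrially encoded genes took 1.41% of the reads in replicate 2 of shCSB/shNDN, against 4.95% to 7.65% in the other 5 libraries. In that replicate 11 genes were at 0 reads that had at least 20 reads in each of the other 5 libraries, while no other library had such a gene.

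Of the 40 genes, 29 passed the filter on low values (at least 0.5 FPKM in at least 2 libraries), and each of the 29 was above that level in all 6 libraries. The 29 include the 4 brain sodium channel alpha genes, all 4 of each beta class, 8 alpha1 genes, 3 alpha2delta genes and 6 gamma genes. Among the 28 genes plotted, levels ran from 0.755 FPKM for Scn3a to 187 FPKM for Cacng7, and in each class a few genes held most of the summed level. FPKM is a level per gene length, so levels of different genes are set side by side, as in the plot of 28 of them. Such rankings depend on the gene lengths used, for example 25228 bases for Cacna1e and 11418 for Cacna1a. Whether these lengths match the transcripts present was not tested.

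**Figure D1:**
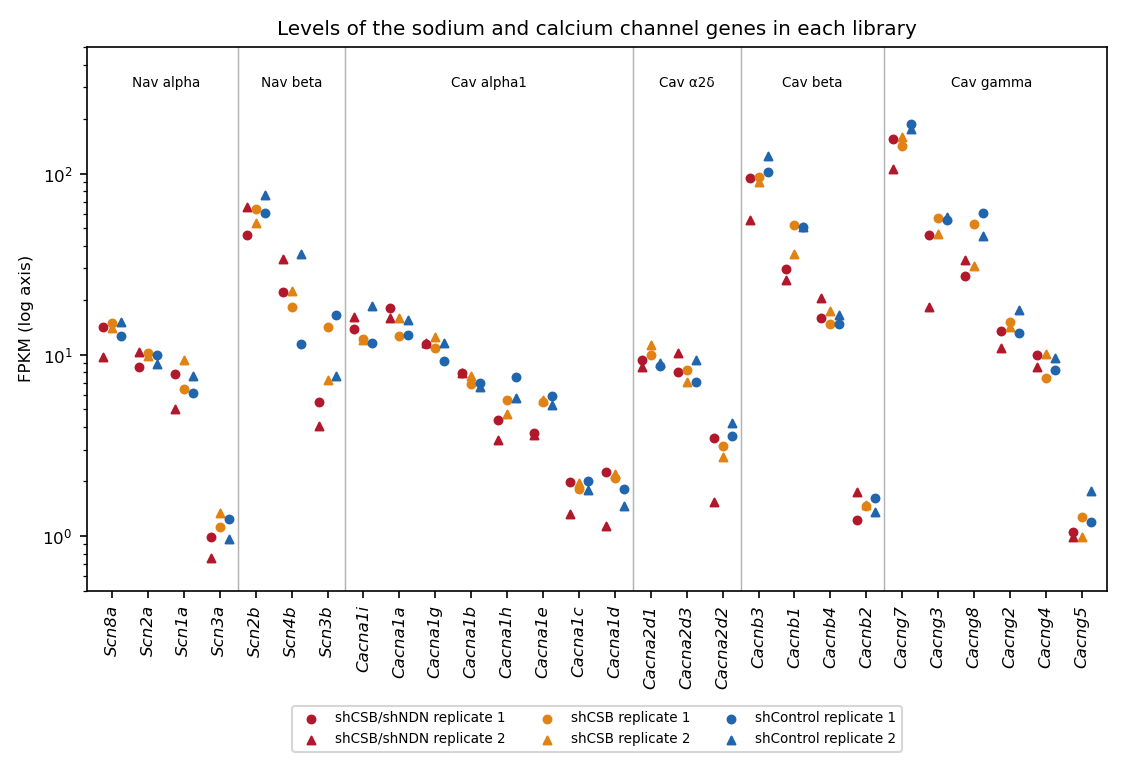
FPKM (log axis) of 28 channel genes above the filter, by class and by falling mean in shControl, with 1 point per library (circle, replicate 1; triangle, replicate 2). Cacng7 stands highest at 106 to 187 FPKM, and Scn3b, Scn4b and Cacng3 are the genes whose libraries lie widest apart.

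Among sodium channel alpha genes, Scn8a, which codes for the main channel of the axon initial segment and nodes of adult neurons, had the highest level in 5 of 6 libraries. Scn8a had 14.3 and 9.68 FPKM in the libraries labelled shCSB/shNDN, 14.9 and 14.1 in those labelled shCSB, and 12.6 and 15.2 in shControl. Scn2a, a channel of excitatory axons and early development, had 8.597 and 10.4 FPKM in the libraries labelled shCSB/shNDN, 10.3 and 9.81 in those labelled shCSB, and 9.98 and 8.94 in shControl. Scn1a, a channel of inhibitory interneurons whose loss causes Dravet syndrome in humans, had 7.88 and 5.01 FPKM in the libraries labelled shCSB/shNDN, 6.46 and 9.35 in those labelled shCSB, and 6.14 and 7.63 in shControl. In replicate 2 of shCSB/shNDN, Scn8a and Scn1a were lower than in the other 5 libraries while Scn2a was not. Scn3a, which is highest in embryonic brain, had 0.992 and 0.755 FPKM in the libraries labelled shCSB/shNDN, 1.12 and 1.34 in those labelled shCSB, and 1.24 and 0.962 in shControl. The groups overlapped for all 4 genes, except that both libraries of shCSB/shNDN lay below both of shCSB for Scn3a.

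The make-up of the class was similar across libraries apart from that replicate. Of the summed FPKM of the 10 alpha genes, Scn8a made up 44.3% and 36.8% in the libraries labelled shCSB/shNDN, 44.9% and 39.8% in those labelled shCSB, and 41.6% and 45.9% in shControl. Scn2a took 26.7% and 39.4% in the libraries labelled shCSB/shNDN, 30.8% and 27.7% in those labelled shCSB, and 32.9% and 26.9% in shControl, and in replicate 2 of shCSB/shNDN its share exceeded that of Scn8a. The summed level of the class was 32.2 and 26.3 FPKM in the libraries labelled shCSB/shNDN, 33.3 and 35.4 in those labelled shCSB, and 30.4 and 33.2 in shControl.

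The other alpha genes described here belong to muscle, glia or sensory neurons and did not pass the filter. Scn9a, known from sensory and sympathetic neurons, ranged from 0.161 to 0.321 FPKM (35 to 73 reads), and Scn7a, a sodium sensor, from 0.0251 to 0.322 FPKM (3 to 42 reads). Scn7a was lowest in replicate 1 of shControl and highest in replicate 2 of shCSB. The sensory neuron genes Scn10a and Scn11a had at most 3 and 7 reads. Scn4a, the skeletal muscle channel, had 0 reads in all 6 libraries, which allows up to 0.0239 to 0.0285 FPKM (3 reads, counting error only).

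Of the sodium channel beta genes, 3 are described here. Scn2b, which is held to the pore by a disulfide bond, had 45.9 and 65.1 FPKM in the libraries labelled shCSB/shNDN, 64.1 and 53.2 in those labelled shCSB, and 60.7 and 75.9 in shControl. Scn4b, also disulfide-linked and the source of the blocking tail behind resurgent current, had 22.3 and 33.97 FPKM in the libraries labelled shCSB/shNDN, 18.5 and 22.6 in those labelled shCSB, and 11.4 and 35.98 in shControl. Scn3b, which is bound to the pore without a covalent link, had 5.48 and 4.05 FPKM in the libraries labelled shCSB/shNDN, 14.2 and 7.24 in those labelled shCSB, and 16.6 and 7.63 in shControl. These last genes differed in opposite senses inside each group: replicate 1 had more Scn3b and less Scn4b than replicate 2 in all 3. The ratio of Scn3b to Scn4b was 0.246 and 0.119 in the libraries labelled shCSB/shNDN, 0.771 and 0.321 in those labelled shCSB, and 1.45 and 0.212 in shControl, so the shControl libraries lay further apart than those of either other group, and the lowest ratio was in shCSB/shNDN.

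Calcium channel alpha1 genes of the presynaptic and low-threshold types led their class. Cacna1a, the pore of P/Q-type channels that trigger transmitter release, had 18.2 and 15.9 FPKM in the libraries labelled shCSB/shNDN, 12.8 and 16.01 in those labelled shCSB, and 12.9 and 15.5 in shControl. Cacna1b, the pore of N-type channels with the same task, had 7.94 and 7.89 FPKM in the libraries labelled shCSB/shNDN, 6.89 and 7.62 in those labelled shCSB, and 6.99 and 6.62 in shControl. Both genes were higher in each library labelled shCSB/shNDN than in each shControl library, by a small margin. Cacna1e, the R-type pore, had 3.72 and 3.602 FPKM in the libraries labelled shCSB/shNDN, 5.47 and 5.597 in those labelled shCSB, and 5.93 and 5.26 in shControl. Its libraries labelled shCSB/shNDN agreed closely with each other and lay below the other 4.

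The T-type genes open at low voltage and support bursts. Cacna1i had 13.9 and 16.2 FPKM in the libraries labelled shCSB/shNDN, 12.3 and 12.1 in those labelled shCSB, and 11.7 and 18.6 in shControl. Cacna1g had 11.5 and 11.6 FPKM in the libraries labelled shCSB/shNDN, 10.8 and 12.6 in those labelled shCSB, and 9.19 and 11.6 in shControl. Cacna1h had 4.36 and 3.405 FPKM in the libraries labelled shCSB/shNDN, 5.603 and 4.72 in those labelled shCSB, and 7.52 and 5.77 in shControl, which sets both libraries labelled shCSB/shNDN below all others. For Cacna1i and Cacna1g the hairpin groups overlapped with shControl.

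The L-type pores of the brain, which couple activity to gene expression, were lower. Cacna1c had 1.98 and 1.33 FPKM in the libraries labelled shCSB/shNDN, 1.81 and 1.97 in those labelled shCSB, and 2 and 1.798 in shControl, and Cacna1d had 2.25 and 1.13 FPKM in the libraries labelled shCSB/shNDN, 2.099 and 2.21 in those labelled shCSB, and 1.82 and 1.47 in shControl. Replicate 2 of shCSB/shNDN was lowest for both. The retinal L-type gene Cacna1f had 6 to 12 reads per library and the skeletal muscle gene Cacna1s 0 to 13. Of the summed FPKM of the class, Cacna1a took 28.5% and 26.01% in the libraries labelled shCSB/shNDN, 22.1% and 25.4% in those labelled shCSB, and 22.2% and 23.2% in shControl. Cacna1e took 5.82% and 5.896% in the libraries labelled shCSB/shNDN, 9.46% and 8.88% in those labelled shCSB, and 10.2% and 7.88% in shControl, its lowest shares being those of shCSB/shNDN. The sum of the class was 63.96 and 61.1 FPKM in the libraries labelled shCSB/shNDN, 57.9 and 63.02 in those labelled shCSB, and 58.04 and 66.7 in shControl.

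Of the alpha2delta genes, Cacna2d1 and Cacna2d3 were at similar levels. Cacna2d1, a binding site of gabapentin, had 9.35 and 8.58 FPKM in the libraries labelled shCSB/shNDN, 10.03 and 11.3 in those labelled shCSB, and 8.72 and 9.03 in shControl. Cacna2d3 had 7.99 and 10.2 FPKM in the libraries labelled shCSB/shNDN, 8.26 and 7.09 in those labelled shCSB, and 7.06 and 9.38 in shControl. For Cacna2d3 all 3 groups overlapped. Cacna2d2, the other gabapentin site, had 3.495 and 1.54 FPKM in the libraries labelled shCSB/shNDN, 3.14 and 2.71 in those labelled shCSB, and 3.55 and 4.21 in shControl, with replicate 2 of shCSB/shNDN far below its partner. Cacna2d4, a retinal gene, had 29 to 56 reads (0.205 to 0.332 FPKM) in 5 libraries and 0 in replicate 2 of shCSB/shNDN, which by counting error alone allows up to 0.0185 FPKM. That library had 435 genes at exactly 1 read, against 1597 to 1839 in the others, so its low values may not be comparable and the limit may not hold. It overlaps Lrtm2 on the other strand.

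Cacnb3 and Cacnb1 made up most of the calcium channel beta class. Cacnb3 had 94.1 and 55.8 FPKM in the libraries labelled shCSB/shNDN, 95.7 and 89.5 in those labelled shCSB, and 102 and 125 in shControl. Cacnb1, the isoform shared by brain and skeletal muscle, had 29.9 and 25.8 FPKM in the libraries labelled shCSB/shNDN, 52.1 and 35.95 in those labelled shCSB, and 50.8 and 50.5 in shControl. Both libraries labelled shCSB/shNDN were below the other 4 for Cacnb1. For Cacnb3 both were below shControl, but replicate 1 lay between the libraries labelled shCSB. Cacnb4, whose loss causes epilepsy and ataxia in the lethargic mouse, had 15.9 and 20.7 FPKM in the libraries labelled shCSB/shNDN, 14.8 and 17.4 in those labelled shCSB, and 14.7 and 16.6 in shControl. Cacnb2, the main cardiac isoform, had 1.22 and 1.74 FPKM in the libraries labelled shCSB/shNDN, 1.46 and 1.47 in those labelled shCSB, and 1.62 and 1.36 in shControl. For both of these, replicate 2 of shCSB/shNDN was the highest of the 6 libraries. The share of Cacnb4 in the class was 11.3% and 19.9% in the libraries labelled shCSB/shNDN, 9.04% and 12.1% in those labelled shCSB, and 8.72% and 8.59% in shControl.

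The gamma class was led by Cacng7, a type II TARP. Cacng7 had 156 and 106 FPKM in the libraries labelled shCSB/shNDN, 142 and 160.1 in those labelled shCSB, and 187 and 176 in shControl. Cacng3, a type I TARP, had 45.8 and 18.3 FPKM in the libraries labelled shCSB/shNDN, 56.7 and 46.6 in those labelled shCSB, and 55.4 and 57.9 in shControl. Cacng8, the type I TARP that is also prominent in hippocampus, had 27.3 and 33.4 FPKM in the libraries labelled shCSB/shNDN, 52.8 and 30.9 in those labelled shCSB, and 60.7 and 45.1 in shControl. All 3 were lower in both libraries labelled shCSB/shNDN than in both of shControl. For Cacng3 the gap rests on replicate 2, and replicate 1 lay just under the lowest of the other 4 libraries. Cacng2, the gene of stargazin, had 13.5 and 10.97 FPKM in the libraries labelled shCSB/shNDN, 15.2 and 14.3 in those labelled shCSB, and 13.2 and 17.6 in shControl. Cacng4 had 9.93 and 8.52 FPKM in the libraries labelled shCSB/shNDN, 7.41 and 10.2 in those labelled shCSB, and 8.26 and 9.59 in shControl. For these type I TARPs shCSB/shNDN overlapped with shControl. Cacng5, the other type II TARP, had 1.05 and 0.991 FPKM in the libraries labelled shCSB/shNDN, 1.27 and 0.982 in those labelled shCSB, and 1.201 and 1.76 in shControl, from 65 to 101 reads, with both libraries labelled shCSB/shNDN below shControl. The muscle-type genes Cacng6 and Cacng1 had 9 to 16 and 0 to 3 reads. The summed level of the class was 254 and 179 FPKM in the libraries labelled shCSB/shNDN, 275 and 264 in those labelled shCSB, and 326 and 308 in shControl, lowest in both libraries labelled shCSB/shNDN.

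**Figure D2:**
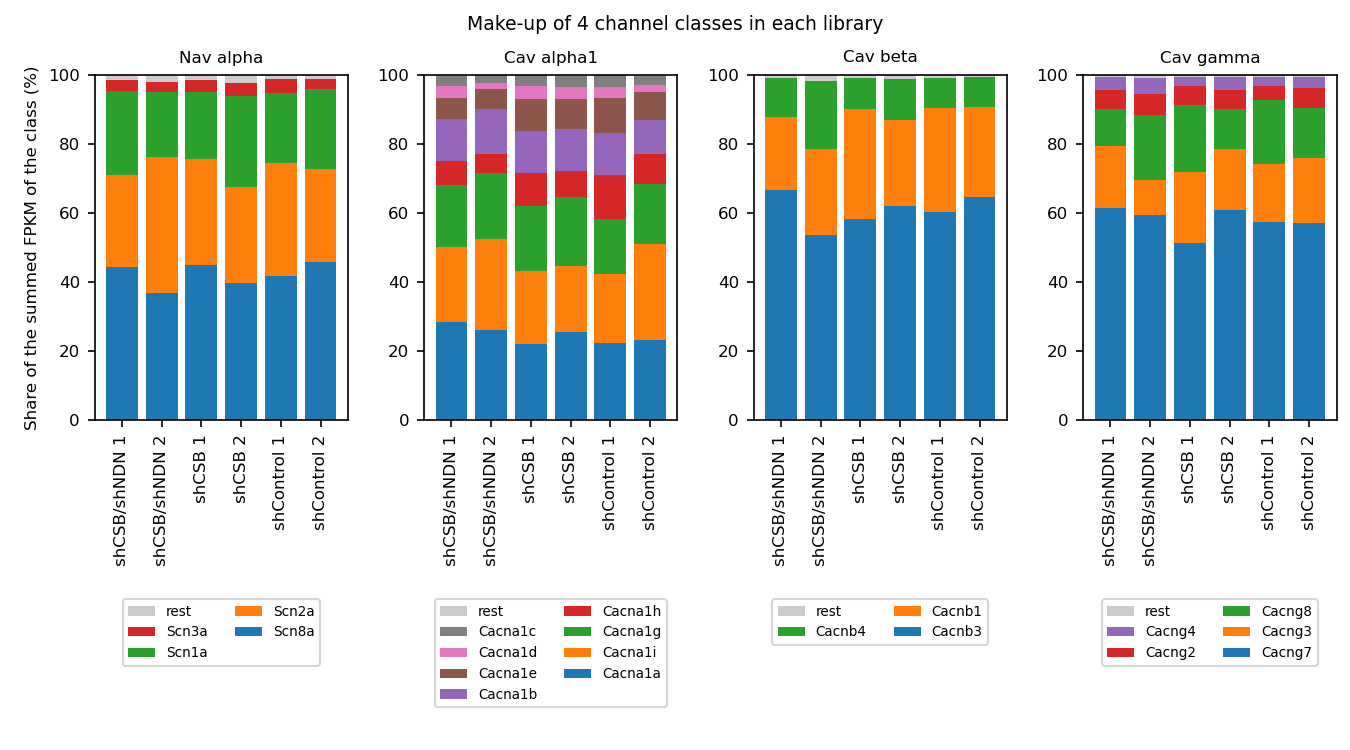
Share (%) of each member in the summed FPKM of its class, 1 bar per library, for sodium channel alpha and calcium channel alpha1, beta and gamma genes, with members never above 2% pooled as rest. Replicate 2 of shCSB/shNDN departs in the share of Scn2a (39.4%), of Cacnb4 (19.9%) and of Cacng3 (10.3%).

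Promoter windows are shown for Cacnb1 and Cacng7, which lay lower in the libraries labelled shCSB/shNDN than in shControl, and for Cacna1b, which lay higher, so that their base make-up can be compared. Each window runs from 250 bases before to 50 after a RefSeq start (build GRCm38.p6), 5′ to 3′ on the gene's strand, with capitals on each GC box (GGGCGG, or CCGCCC for the other strand). The starts lie 407, 130 and 0 bases from the gene's edge in the table for Cacnb1, Cacng7 and Cacna1b.
Cacnb1 (chr11:98022578-98022877, minus strand): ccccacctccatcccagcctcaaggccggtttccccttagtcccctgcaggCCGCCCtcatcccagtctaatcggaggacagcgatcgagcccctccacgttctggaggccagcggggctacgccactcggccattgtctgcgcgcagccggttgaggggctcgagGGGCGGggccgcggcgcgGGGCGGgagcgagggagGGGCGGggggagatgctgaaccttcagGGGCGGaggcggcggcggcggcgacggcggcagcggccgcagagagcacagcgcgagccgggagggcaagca
Cacng7 (chr7:3332575-3332874, plus strand): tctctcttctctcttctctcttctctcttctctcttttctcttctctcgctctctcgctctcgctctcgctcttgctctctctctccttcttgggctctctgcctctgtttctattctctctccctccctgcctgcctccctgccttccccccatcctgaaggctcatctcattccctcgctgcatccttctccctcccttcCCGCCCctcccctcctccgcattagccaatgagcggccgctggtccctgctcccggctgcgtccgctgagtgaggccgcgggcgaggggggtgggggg
Cacna1b (chr2:24763103-24763402, minus strand): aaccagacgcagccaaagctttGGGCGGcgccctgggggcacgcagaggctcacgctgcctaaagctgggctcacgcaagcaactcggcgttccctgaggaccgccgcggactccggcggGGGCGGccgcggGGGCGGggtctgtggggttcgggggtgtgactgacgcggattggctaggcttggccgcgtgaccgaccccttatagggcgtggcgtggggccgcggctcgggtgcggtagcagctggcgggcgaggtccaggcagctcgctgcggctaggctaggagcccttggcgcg
Cacnb1 had 5 GC boxes and a GC content of 73.7%, Cacng7 1 and 62.0%, and Cacna1b 3 and 72.3%. The median GC content was 59.3% over the 41 windows of channel genes and 52.7% over all 32851 windows. A GC box on either strand was present in 35.7% of all 32851 windows and in 16 of the 41 windows that matched 30 of the 40 channel genes. A TATA box (TATAAA or TTTATA) was in 13.6% of all windows and 2 of the 41, and the full cAMP response element (TGACGTCA, which reads the same on both strands) in 1.79% and 0 of the 41. None of the 3 windows shown held either. These are matches of letters in a window, and say nothing of binding.

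In the libraries labelled shCSB/shNDN compared with shControl, the channel genes with both libraries below both controls were 9 auxiliary genes (alpha2delta, beta or gamma) and 2 calcium channel pores, but no channel gene passed the threshold. The 9 included 4 of the 6 gamma genes tested, all 4 of them TARP genes. The pores were 2 of 8 alpha1 genes and 0 of 4 sodium channel alpha genes. By limma 0 of the 29 had an adjusted p under 0.05, where 0.00615% of all 16254 genes tested did. By limma-voom on the recovered reads it was also 0, where 0.0369% of all genes passed. At an unadjusted p under 0.05 there were 5 of 29 (17.2%), against 13.4% of all genes, and all 5 lay lower: Cacnb1, Cacna1e, Cacna1h, Scn3b and Cacng8. Both libraries were below both controls for 11 of 29 members (37.9%), against 23.7% of all genes, and above both for 2 (6.90%), against 20.7%. The median log2 change of the 29 was -0.16 on the scale of log2(FPKM + 1), and that of all genes -0.0075.

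Cacnb1 had the smallest p of the family, with a log2 change of -0.84 ± 0.22 (SE), with a 95% interval of -1.37 to -0.31 (limma adjusted p = 0.265). Its mean in shCSB/shNDN was 0.55 times that in shControl. The gene lies on the minus strand of chromosome 11 (98001508 to 98023034, GRCm38), and Cacna1e on that of chromosome 1 (154390731 to 154884501). Cacna1e had -0.50 ± 0.15 (SE), with a 95% interval of -0.86 to -0.14 (limma adjusted p = 0.2998), and Cacna1h -0.64 ± 0.20 (SE), with a 95% interval of -1.12 to -0.17 (limma adjusted p = 0.301). For Scn3b the value was -1.11 ± 0.42 (SE), with a 95% interval of -2.11 to -0.10 (limma adjusted p = 0.344), a wide interval beside shControl levels of 16.6 and 7.63 FPKM. Cacng8 had -0.77 ± 0.30 (SE), with a 95% interval of -1.49 to -0.058 (limma adjusted p = 0.348). The interval of each of these 5 genes left out 0, and none passed after adjustment over all genes. Cacng3 followed with -0.94 ± 0.40 (SE), with a 95% interval of -1.89 to 0.018 (limma adjusted p = 0.376), Cacnb3 with -0.63 ± 0.28 (SE), with a 95% interval of -1.31 to 0.044 (limma adjusted p = 0.3895) and Cacng7 with -0.49 ± 0.24 (SE), with a 95% interval of -1.07 to 0.092 (limma adjusted p = 0.427). Without shCSB/shNDN replicate 2 these last 3 values were -0.30 for Cacng3, -0.26 for Cacnb3 and -0.22 for Cacng7, and without replicate 1 they were -1.58, -1.004 and -0.77. Scn3b was at -0.59 without shControl replicate 1. In the other direction stood Cacna1a at 0.25 ± 0.19 (SE), with a 95% interval of -0.20 to 0.71 (limma adjusted p = 0.595) and Cacna1b at 0.19 ± 0.15 (SE), with a 95% interval of -0.17 to 0.55 (limma adjusted p = 0.609). Scn4b, at 0.41 ± 0.50 (SE), with a 95% interval of -0.78 to 1.61 (limma adjusted p = 0.749), turned to -0.37 without shControl replicate 1.

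By class, the medians in this comparison were -0.13 for the 4 sodium channel alpha genes (range -0.22 to -0.00014), -0.31 for the 4 sodium channel beta genes, 0.0082 for the 8 alpha1 genes, 0.011 for the 3 alpha2delta genes, -0.32 for the 4 calcium channel beta genes and -0.40 for the 6 gamma genes. Put together after their values were seen, the 15 pore and alpha2delta genes had a median of -0.0054 and the 14 beta and gamma genes one of -0.31. This grouping differs from the count of genes below both controls given above, where alpha2delta genes stood with the auxiliary genes. The intervals of the sodium channel pores ran, for example, from -0.74 to 0.30 for Scn8a and from -0.40 to 0.40 for Scn2a.

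The 2 libraries of the group did not contribute alike. Replicate 1 was below both controls for 14 of the 29 genes (48.3%, against 41.6% of all genes) and replicate 2 for 18 (62.1%, against 42.7%). Of the 29, 15 had their lowest value of the 6 libraries in replicate 2, a share to be read against 30.8% of all genes. Without shCSB/shNDN replicate 1, so with replicate 2 as the lone library, 4 members passed the threshold (Cacna2d2, Cacnb3, Cacng3 and Cacng7), together with 11.1% of all genes. Without shCSB/shNDN replicate 2, 0 members passed, with 3.86% of all genes, and the median change was -0.11. The median was -0.31 without shCSB/shNDN replicate 1, -0.34 without shControl replicate 1 and -0.11 without shControl replicate 2. A lone library is assumed in such a fit to vary like the other groups.

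**Figure D3:**
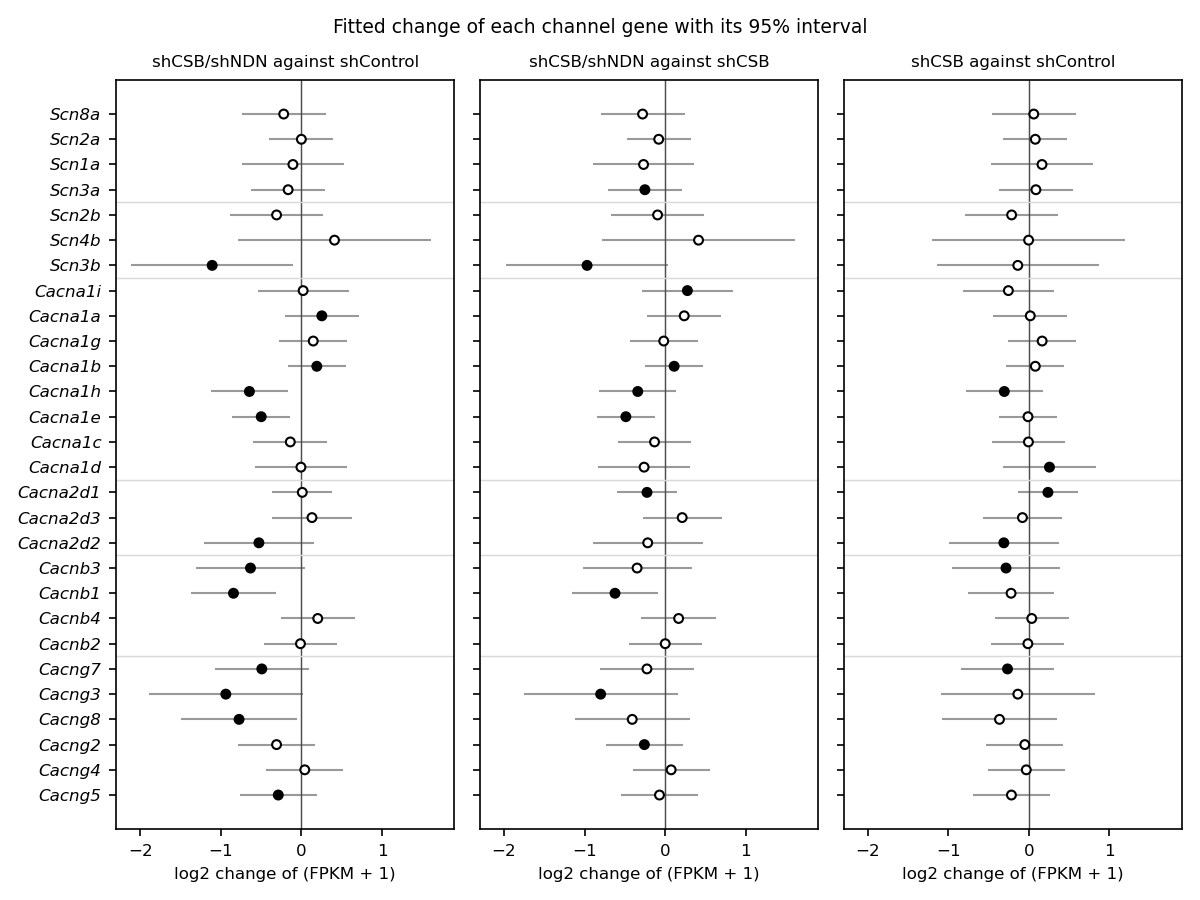
Fitted log2 change of log2(FPKM + 1) (x axis, points) with its 95% interval (lines) for 28 channel genes in 3 comparisons. Filled points mark genes whose groups do not overlap (10 below and 2 above for shCSB/shNDN against shControl), and 0 genes pass the threshold in any comparison.

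Set against the libraries labelled shCSB, those labelled shCSB/shNDN had Cacna1e and Cacnb1 with the smallest p values, in a comparison that shares its shCSB/shNDN libraries with the one above. Here 0 of 29 channel genes passed by limma (0% of all genes) and 0 by limma-voom (0%). At an unadjusted p under 0.05 there were 2 (6.90%), against 8.43% of all genes. Cacna1e had a log2 change of -0.49 ± 0.15 (SE), with a 95% interval of -0.85 to -0.12 (limma adjusted p = 0.522), and Cacnb1 one of -0.62 ± 0.22 (SE), with a 95% interval of -1.15 to -0.092 (limma adjusted p = 0.5596). Next came Scn3b with -0.97 ± 0.42 (SE), with a 95% interval of -1.97 to 0.036 (limma adjusted p = 0.6001), and Cacng3 with -0.80 ± 0.40 (SE), with a 95% interval of -1.76 to 0.15 (limma adjusted p = 0.645). Cacng8 had -0.41 ± 0.30 (SE), with a 95% interval of -1.12 to 0.31 (limma adjusted p = 0.747), and its groups overlapped, with replicate 2 of shCSB at 30.9 FPKM. Without shCSB replicate 1, Cacng8 was at -0.031, Cacnb1 at -0.36 and Scn3b at -0.53, and without shCSB replicate 2 they were at -0.79, -0.88 and -1.41. Cacng3 was at -0.16 without shCSB/shNDN replicate 2.

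Both libraries lay below both of shCSB for 8 of the 29 (27.6%), against 18.4% of all genes. These were Cacna1e, Cacna1h, Cacna2d1, Cacnb1, Cacng2, Cacng3, Scn3a and Scn3b. Both lay above for Cacna1b and Cacna1i, 6.90% against 16.5% of all genes. The median change was -0.22 for the channel genes and -0.0083 for all genes. It was -0.024 without shCSB/shNDN replicate 2 and -0.28 without replicate 1, where Cacng3 had a change of -1.44. It was -0.14 without shCSB replicate 1 and -0.15 without shCSB replicate 2.

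Between the libraries labelled shCSB and shControl, the fitted values of the 29 channel genes ran from -0.36 to 0.26 on the log2 scale. By limma 0 of 29 passed (0% of all genes), by limma-voom 0 (0%), and 0 had an unadjusted p under 0.05, against 1.94% of all genes. The smallest p values belonged to Cacna1h, at -0.31 ± 0.20 (SE), with a 95% interval of -0.78 to 0.17 (limma adjusted p = 1), and Cacna2d1, at 0.24 ± 0.15 (SE), with a 95% interval of -0.13 to 0.61 (limma adjusted p = 1). Both libraries lay below both controls for 5 of 29 (17.2%), against 18.1% of all genes, among them Cacna1h, Cacna2d2, Cacnb3 and Cacng7. Both lay above for Cacna1d and Cacna2d1, 6.90% against 18.3% of all genes. Cacng7 had -0.27 ± 0.24 (SE), with a 95% interval of -0.85 to 0.32 (limma adjusted p = 1). All 4 sodium channel alpha genes had values above 0 (0.061 to 0.16), none past the threshold. The median of the 29 was -0.032, and it was -0.13 without shControl replicate 1. It was 0.053 by limma-voom, where the median of all genes was 0.080, against -0.0035 by limma.

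**Figure D4:**
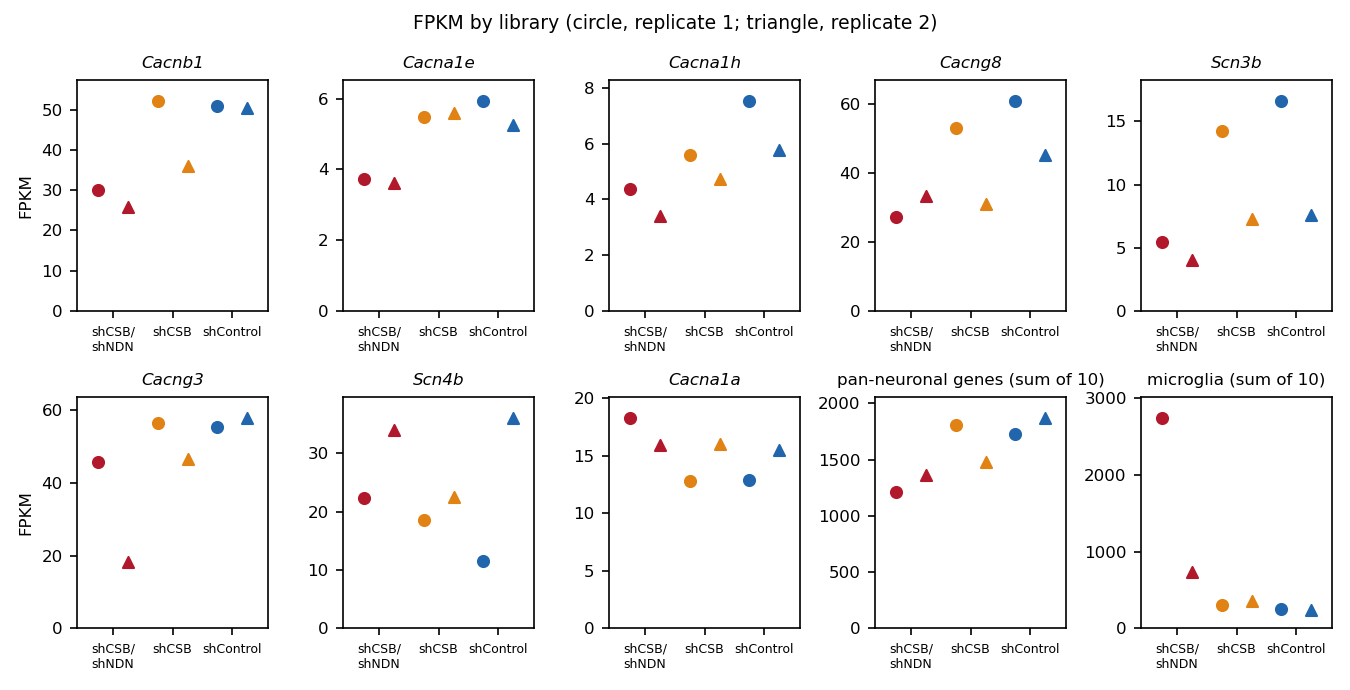
FPKM (axes from 0) of 8 channel genes and the summed FPKM of 10 pan-neuronal and 10 microglia markers, 1 point per library (circle, replicate 1; triangle, replicate 2). Cacnb1, Cacna1e and Cacna1h are lower in both libraries labelled shCSB/shNDN than in the other 4, pan-neuronal markers are lowest there, and the microglia sum is highest there at 2740 and 731 FPKM.

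Marker lists of cell types were summed in each library beside the channel genes, and by limma 0 of their genes passed the threshold. The 10 pan-neuronal markers summed to 1208 and 1362 FPKM in the libraries labelled shCSB/shNDN, 1810 and 1483 in those labelled shCSB, and 1727 and 1868 in shControl, their median change for shCSB/shNDN against shControl was -0.39, and 6 of 10 had both libraries below both controls, beside 23.7% of all genes. For the 10 excitatory neuron markers the sums were 825 and 580.5 FPKM in the libraries labelled shCSB/shNDN, 885 and 863 in those labelled shCSB, and 970.1 and 1064 in shControl, with a median of -0.36 and again 6 of 10. Inhibitory neuron markers summed to 683 and 1325 FPKM in the libraries labelled shCSB/shNDN, 1105 and 884 in those labelled shCSB, and 1119 and 1103 in shControl (median -0.18, 4 of 10). The gap between the shCSB/shNDN libraries lay mostly in Sst (279.6 and 797.7 FPKM) and Pvalb (68.96 and 246.5). Npy (142.5 and 86.3), Lamp5 (109 and 88.4) and Lhx6 (3.79 and 3.37) were lower in replicate 2 of that group. All of these neuronal markers were detected in every library, with none at 0. The class medians of the channel genes in this comparison, given above, ran from -0.40 for gamma and -0.32 for calcium channel beta genes to -0.13 for sodium channel alpha, 0.0082 for alpha1 and 0.011 for alpha2delta genes. A lower median was not confined to neuronal lists. The 10 oligodendrocyte markers summed to 1365 and 1058 FPKM in shCSB/shNDN, 1010 and 1329 in shCSB, and 1396 and 1377 in shControl. Their median for shCSB/shNDN against shControl was -0.19, with 4 below both controls and 1 above. The 8 markers of oligodendrocyte precursors had a median of 0.12. In such tissue RNA, fewer neurons and less RNA per neuron cannot be told apart.

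Microglia markers summed to 2740 and 731 FPKM in the libraries labelled shCSB/shNDN, 310.1 and 358 in those labelled shCSB, and 254 and 242 in shControl, with 9 of 10 above both controls in shCSB/shNDN, beside 20.7% of all genes. Astrocyte markers summed to 959.7 and 705 FPKM in the libraries labelled shCSB/shNDN, 656 and 823 in those labelled shCSB, and 718 and 784 in shControl, with 3 of 10 above both controls and 1 below for shCSB/shNDN, beside 20.7% and 23.7% of all genes. Gfap, 1 of the 3 above, had 372 and 152 FPKM in shCSB/shNDN, 76.3 and 56.3 in shCSB, and 52.2 and 48.4 in shControl. Aldoc, the 1 below, had 270 and 195 FPKM in shCSB/shNDN, 312 and 368.5 in shCSB, and 388 and 431 in shControl. Markers of meninges and fibroblasts, of which 8 of 10 passed the filter, summed to 16.4 and 15.3 FPKM in the libraries labelled shCSB/shNDN, 19.97 and 17.7 in those labelled shCSB, and 9.28 and 6.23 in shControl, with 7 of 8 above both controls in shCSB/shNDN and 8 of 8 in shCSB, beside 20.7% and 18.3% of all genes. Leukocyte markers, of which 5 of 10 passed the filter, summed to 22.6 and 7.24 FPKM in the libraries labelled shCSB/shNDN, 1.97 and 2.12 in those labelled shCSB, and 0.735 and 0.339 in shControl. Of the 5, 4 lay above both controls in shCSB/shNDN, beside 20.7% of all genes. Itgax alone had 18.04 and 4.57 FPKM in the libraries labelled shCSB/shNDN, while Cd3e, Cd3g, Cd8a, Ms4a1 and Ccr2 did not pass the filter. Mitochondrially encoded genes, a sign of RNA make-up, summed to 37040 and 6248 FPKM in the libraries labelled shCSB/shNDN, 33660 and 54930 in those labelled shCSB, and 52420 and 50360 in shControl. The part of these differences in the channel gene values was not tested. For the muscle-type channel genes, 4 of 10 skeletal muscle markers (Ckm, Myh1, Myh4 and Tnnt3) did not pass the filter and were at most 0.249 FPKM. Of the rest, Acta1 was at 6.70 to 19.8 FPKM, and Pvalb is also a marker of cortical interneurons.

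Partner genes of the channels were taken as 4 lists, of which by limma 0 genes passed the threshold in any comparison. At an unadjusted p under 0.05, 0 of 13, 1 of 16, 1 of 4 and 3 of 10 genes stood for shCSB/shNDN against shControl, beside 13.4% of all genes. For shCSB/shNDN against shControl the median change was -0.10 over 13 sodium channel partners, -0.097 over 16 calcium channel partners, -0.12 over 4 genes of the sodium leak channel complex and -0.14 over 10 AMPA receptor subunits and other auxiliary genes, beside -0.0075 over all genes. Both libraries were below both controls for 4 of 13, 4 of 16, 1 of 4 and 5 of 10, beside 23.7% of all genes. Ordered by their smallest p in any comparison, which came from shCSB/shNDN against shCSB, the sodium channel partners began with Fgf12, an intracellular channel modulator, Nedd4l, a ubiquitin ligase of sodium channels, and Gpd1l. Fgf12 had 13.7 and 9.85 FPKM in the libraries labelled shCSB/shNDN, 16 and 17.4 in those labelled shCSB, and 15.02 and 17.98 in shControl.

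Among calcium channel partners, Cachd1, an alpha2delta-like protein, and Gem, a small GTPase that binds calcium channel beta subunits, lay higher, and Stac3, an adaptor of muscle channels, lay lower than in shControl. Cachd1 had 1.97 and 2.31 FPKM in the libraries labelled shCSB/shNDN, 1.31 and 0.905 in those labelled shCSB, and 1.63 and 1.101 in shControl, and Gem 1.81 and 1.25 FPKM in the libraries labelled shCSB/shNDN, 0.754 and 0.427 in those labelled shCSB, and 1.14 and 0.414 in shControl. Both libraries labelled shCSB/shNDN were the highest of the 6 for each. Fam155a, an accessory subunit of the leak channel, had 8.15 and 5.44 FPKM in the libraries labelled shCSB/shNDN, 11.8 and 9.82 in those labelled shCSB, and 11.6 and 12.3 in shControl, with both libraries labelled shCSB/shNDN below the other 4. Unc79 had 2.57 and 1.63 FPKM in the libraries labelled shCSB/shNDN, 2.84 and 2.97 in those labelled shCSB, and 2.34 and 2.25 in shControl, and Unc80 7.96 and 9.93 FPKM in the libraries labelled shCSB/shNDN, 8.96 and 12.1 in those labelled shCSB, and 10.2 and 9.41 in shControl, with groups that overlap for shControl.

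The AMPA receptor list bears on the TARPs, since they share complexes. Gria1, a pore subunit, had 24.2 and 26.3 FPKM in the libraries labelled shCSB/shNDN, 40.2 and 33.99 in those labelled shCSB, and 46.6 and 34.5 in shControl, again lowest in both libraries labelled shCSB/shNDN. Cnih2, an auxiliary subunit found with Cacng8, had 175 and 265 FPKM in the libraries labelled shCSB/shNDN, 351 and 249 in those labelled shCSB, and 452 and 324 in shControl, and Shisa7, another, had 16.4 and 6.07 FPKM in the libraries labelled shCSB/shNDN, 19.5 and 16.9 in those labelled shCSB, and 23.8 and 20.9 in shControl. Like Cacng8, Gria1 and Cnih2 were lower in replicate 1 of shCSB/shNDN than in replicate 2, while Shisa7, like Cacng3, was lower in replicate 2.

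Many of the genes lie in clusters (GRCm38, as in the table). Scn3a, Scn2a, Scn1a, Scn9a and Scn7a share 1330 kb of chromosome 2 (65457118 to 66784914), while Scn8a is on chromosome 15. Cacng7, Cacng8 and Cacng6 lie within 103 kb of chromosome 7 (3332955 to 3435667), and their levels in shControl ran from 0.305 to 187 FPKM. Scn2b and Scn4b are neighbours on chromosome 9 (45117782 to 45154152). Cacng1, Cacng4 and Cacng5 are on chromosome 11 (107703218 to 107915055).

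The channel genes are long, with a median span of 111 kb, against 23.8 kb for the 13346 protein-coding genes tested. For shCSB against shControl, Spearman's rho between span and log2 change was 0.59 across the 29 genes, beside 0.22 across all protein-coding genes tested. It was 0.43 beside 0.056 for shCSB/shNDN against shControl, and 0.17 beside -0.068 for shCSB/shNDN against shCSB. These are descriptions across genes of the same 6 libraries, which are not independent, and each pair of comparisons shares a group. Span and class go together, since pore and alpha2delta genes had a median span of 170 kb and beta and gamma genes one of 30.1 kb. Within these classes rho for shCSB against shControl was 0.082 over 15 and 0.59 over 14 genes. In the same order it was 0.139 and 0.248 for shCSB/shNDN against shControl, and -0.0143 and 0.143 for shCSB/shNDN against shCSB.

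Many channel genes overlap other annotated genes, and the strand setting of the counting is not given in the sources used here. Cacna1d overlaps Dcp1a and Chdh, Cacna1c overlaps Dcp1b, and Cacna1h overlaps Tpsg1, all on the other strand, so reads of these genes cannot be fully told apart. On the other strand too, Cacnb1 overlaps Gm11629, Scn3b overlaps Gm47266 and Cacng3 overlaps Gm44749. Overlaps on the same strand include Cacng7 with Gm44256, Cacng8 with Gm23450, Cacna1d with Gm18072 and Cacna1c with Gm18981. Cacna1e, Scn8a, Scn2a and Scn4b overlap no other gene of the table.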

How the data were processed

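Per the labels' protocols, total RNA was made into libraries with a stranded total RNA kit. The authors deposited FPKM values per gene as 1 table. HISAT2 2.0.4, FastQC and the build GRCm39 are named, per the submitters' processing notes. Counting program, strand setting and annotation release are not given in the sources used here. Gene positions equal those of GENCODE M21 (GRCm38) for 98.3% of shared identifiers and for all 40 channel genes, so coordinates are GRCm38.

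Multiplying FPKM by gene length and dividing by the value of 1 read in that library gave whole reads (tolerance 0.01) for 100% of values. As floor, 3 reads are used. In the table, 27 date-like symbols were restored and 100 repeated symbols summed. On the scale of log2(FPKM + 1), group means of the 6 libraries were estimated by limma 3.58.1 in R 4.3.3 for 16254 genes (at least 0.5 FPKM in at least 2), letting the variance depend on the mean, with residual df 3, prior df 3.42, two-sided p values and Benjamini-Hochberg adjustment over all genes kept (threshold 0.05). With 2 libraries a group, p values measure the spread between these libraries, which may be partly technical.

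Channel genes at or above 1 FPKM on average in shControl, and the 3 smallest p values a comparison, are given by library, and the 3 smallest p values of each partner list are named. Members and lists were chosen with earlier results of these data known. Values of 2 of the 40 channel genes are not reported here by gene. Steps were tested on simulated data. Promoter windows are from RefSeq. Alternatives are listed in the closing section.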

Additional observations from a re-analysis of the deposited data

How the results depend on the processing

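Alternatives were a pseudocount of 0.1, no filter on low values, the replicate block, only the libraries compared, quantile normalization, scaling by median ratios, limma-voom, a weight per library, and leaving out each library. The count of channel genes past the threshold was 0 under all of these except in fits that leave out 1 library, where it ran from 0 to 1 for shCSB/shNDN against shCSB and from 0 to 4 for shCSB/shNDN against shControl. The highest counts came without shCSB/shNDN replicate 1. In that fit the group was left with a lone library, and the share of all genes past the threshold rose as well. The higher counts are therefore not read as a result about channel genes. The median change for shCSB against shControl was 0.053 by limma-voom and -0.13 to -0.0076 with 1 library left out. For shCSB/shNDN against shCSB it was -0.080 with no filter and -0.28 to -0.024 with 1 library left out. For shCSB/shNDN against shControl it was -0.24 with the pseudocount of 0.1, -0.048 with no filter, -0.12 by limma-voom and -0.34 to -0.11 with 1 library left out. By limma-voom the median of all genes for shCSB/shNDN against shControl moved as well, to 0.093 from -0.0075 by limma. With no filter, 10 more channel genes near 0 entered the median. The cause of the other shifts was not tested.

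Of the 19 gene changes given in the text, 18 kept their sign under every alternative, though sizes moved where 1 library was left out. Part of this was fixed in advance. The replicate block, the fit of only the libraries compared and leaving out a library of the group not compared cannot move a change. The weights per library were equal within each group, so they left the changes as they were too. Scn4b for shCSB/shNDN against shControl was -0.37 without shControl replicate 1 and 1.20 without shControl replicate 2. Libraries with the same number did not deviate together (correlations of -0.072 to 0.054), so the numbers were not taken to pair them. In this balanced design the replicate block cannot move a group difference. The median changes therefore stayed at -0.032 for shCSB against shControl, -0.22 for shCSB/shNDN against shCSB and -0.16 for shCSB/shNDN against shControl. The block did alter the standard errors. For shCSB/shNDN against shControl that of Scn3b went from 0.42 to 0.22 and that of Cacna1e from 0.15 to 0.18. With the block, 0 channel genes passed the threshold in each comparison. Shares within a class are the same from the recovered reads by construction (41.6% for Scn8a in shControl replicate 1). Those reads are FPKM multiplied by gene length, so this is no separate check.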

Other observations

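Scn3b differed more than 2-fold between the control libraries, and of the 10 excitatory neuron markers, 2 deep-layer genes picked after their values were seen are set beside it. Fezf2, a transcription factor of deep-layer projection neurons, had 9.83 and 7.94 FPKM in the libraries labelled shCSB/shNDN, 25.97 and 12.5 in those labelled shCSB, and 30.5 and 18.4 in shControl. It ranked the 6 libraries in the same order as Scn3b. Tbr1, a transcription factor of deep-layer neurons too, had 22.2 and 37.99 FPKM in the libraries labelled shCSB/shNDN, 25.1 and 30.6 in those labelled shCSB, and 23.9 and 27.6 in shControl, and did not: it was highest in replicate 2 of shCSB/shNDN, where Fezf2 and Scn3b were lowest. The part of such markers in the values of Scn3b was not tested.

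The retinal gene Cacna2d4 was 1 of the 11 genes at 0 reads in replicate 2 of shCSB/shNDN with at least 20 reads in every other library.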
